A study of Homo sapiens with 6 samples.

Results

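Mitochondrial ribosomal proteins are the nuclear-encoded proteins of the ribosome that works inside mitochondria. Their genes were taken as all symbols in the deposited lists that begin with MRPL or MRPS, followed by a number and at most a letter from A to C. The rule found 77 genes among 20979 symbols, 48 named MRPL and 29 named MRPS. All 77 were listed in all 6 libraries, and all 77 passed the filter of a mean of at least 1 TPM that 13400 symbols met. TPM is a transcript level scaled by transcript length and by library total, so levels of different genes can be set side by side.

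The libraries were made from polyadenylated RNA of A172 cells, a human glioblastoma line. Cells were transfected with a miR-324-5p duplex (5p duplex, n = 2 libraries), a miR-324-3p.1 duplex (3p.1 duplex, n = 2) or a control microRNA (control, n = 2). All were harvested after 1 day and carried no other labelled treatment. The cells are 1 established line, so the groups describe this line only. The labels do not say whether the replicates are separate cultures. All p-values therefore reflect the spread between these libraries, which may be technical.

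The mitochondrial ribosome makes the membrane subunits of the respiratory chain and the ATP synthase that the mitochondrial genome encodes. Its RNAs come from that genome, while every protein of it is made in the cytosol and imported. Proteins of the large subunit form the peptidyl transferase side and the exit tunnel, and proteins of the small subunit form the side that binds and decodes messenger RNA. Part of both sets descends from the bacterial ribosome, and the rest was gained in mitochondria. MicroRNAs lower transcripts that carry a match to the seed, which is bases 2 to 8 of the loaded strand, usually in the 3′UTR.

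The mature arms of miR-324 set which sites are sought in the members. RefSeq (GRCh38.p14) places both on chromosome 17, minus strand, miR-324-5p at chr17:7223343-7223364 and miR-324-3p at chr17:7223308-7223330. Capitals mark the seed.
hsa-miR-324-5p: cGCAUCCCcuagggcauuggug
hsa-miR-324-3p: cCCACUGCcccaggugcugcugg
The sites that pair with these seeds are GGGATGC for miR-324-5p and GCAGTGG for miR-324-3p. The labels give no sequence for the 3p.1 duplex, so whether it begins at the annotated first base of the 3p arm is not known here, and sites for the 3p arm are given for the annotated arm only.

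In the longest annotated 3′UTR of each gene (GENCODE 29, GRCh38), 7 of 77 members held a site for miR-324-5p of at least 7 bases, which is 9.09% against 14.6% of the 11743 tested genes with a 3′UTR. None of the 77 held an 8mer for it, the longest class, against 2.81% of tested genes. Members have short 3′UTRs, with a median of 508 nt against 1382 nt in tested genes. The 7 members with a site held 8 such sites, of which 7 are shown as places where a member could pair with the 5p seed. The longest 3′UTR need not belong to the transcript with the longest coding sequence. That transcript is 784 nt in MRPL22 and 701 nt in MRPL42, while the 3′UTRs searched were 2514 and 14992 nt. Which forms the cells expressed was not read. Capitals mark the site, with up to 10 bases on either side, read 5′ to 3′ along the transcript.
MRPL22, chr5:154968667-154968693, plus strand: tcatgtggtgGGGATGCtccacgattg
MRPL42, chr12:93503115-93503141, plus strand: ttcgtaaagtGGGATGCttctttaatt
MRPL44, chr2:223967035-223967058, plus strand: ccgccatGGATGCAgcagcctgaa
MRPS23, chr17:57837344-57837370, minus strand: ctagagttatGGGATGCtggatcaagg
MRPS25, chr3:15049266-15049292, minus strand: atgaagagcaGGATGCAtgttagtctt
MRPS33, chr7:141006124-141006150, minus strand: ggggtgggatGGGATGCtgggggaatg
MRPS33, chr7:141005462-141005488, minus strand: tcagctactcGGGATGCtgaggcagga

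Sites for the annotated 3p arm were more frequent, in 26 of 77 members (33.8%, against 32.1% of tested genes). Of these, 4 members held an 8mer (5.19%, against 4.50%), and those 4 are shown with the site in capitals.
MRPL9, chr1:151759994-151760021, minus strand: agaatcgggaGCAGTGGAgcagaaatgt
MRPL18, chr6:159798227-159798254, plus strand: caataatgttGCAGTGGAatattatttg
MRPS12, chr19:38933047-38933074, plus strand: tgtggctgtgGCAGTGGAcatctctgag
MRPS21, chr1:150308376-150308403, plus strand: ccattagtcaGCAGTGGAccctgtcttt
The 26 members held 42 such sites, and 11 of the 42, in 7 members, had GGAGT directly before them.

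Levels of the members spanned 26.3-fold on the TPM scale, from a 6-library mean of 18.8 TPM for MRPL57 to 494 TPM for MRPL33, with a median of 82.0 TPM over the 77 genes. The 50 large subunit genes had a median of 82.4 TPM and the 26 small subunit genes one of 81.5 TPM. MRPS30 and MRPS18A were counted with the large subunit, where their proteins sit despite their names. Members with a bacterial homologue (46 genes) had a median of 96.2 TPM, and those found only in mitochondria (30 genes) one of 77.3 TPM. MRPS36 belongs to neither subunit in structures of the human ribosome and is now described as a part of the 2-oxoglutarate dehydrogenase complex.

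MRPL33, a large subunit protein, stood at 542.24 and 473.56 TPM with the 5p duplex, at 502.82 and 503.60 TPM with the 3p.1 duplex and at 464.06 and 478.99 TPM in control. The 5p duplex libraries overlapped control, and the 3p.1 duplex libraries stood above both. Next in level came MRPL47 (mean 268.8 TPM), MRPL32 (256.7 TPM), MRPL18 (243.4 TPM) and MRPS24 (241.2 TPM). MRPL32 matures in the matrix before the ribosome is assembled. At the low end were MRPL57 (18.8 TPM), MRPS11 (25.6 TPM), MRPL52 (26.7 TPM), MRPS31 (30.8 TPM) and MRPS5 (31.9 TPM). MRPL57 stood nearest to the 1 TPM filter, and no member fell below it. MRPL57 gave 16.21 and 18.76 TPM with the 5p duplex, 17.44 and 20.22 TPM with the 3p.1 duplex and 19.81 and 20.48 TPM in control, so the 5p duplex lay below control without overlap while the 3p.1 duplex overlapped it.

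**Figure D1:**
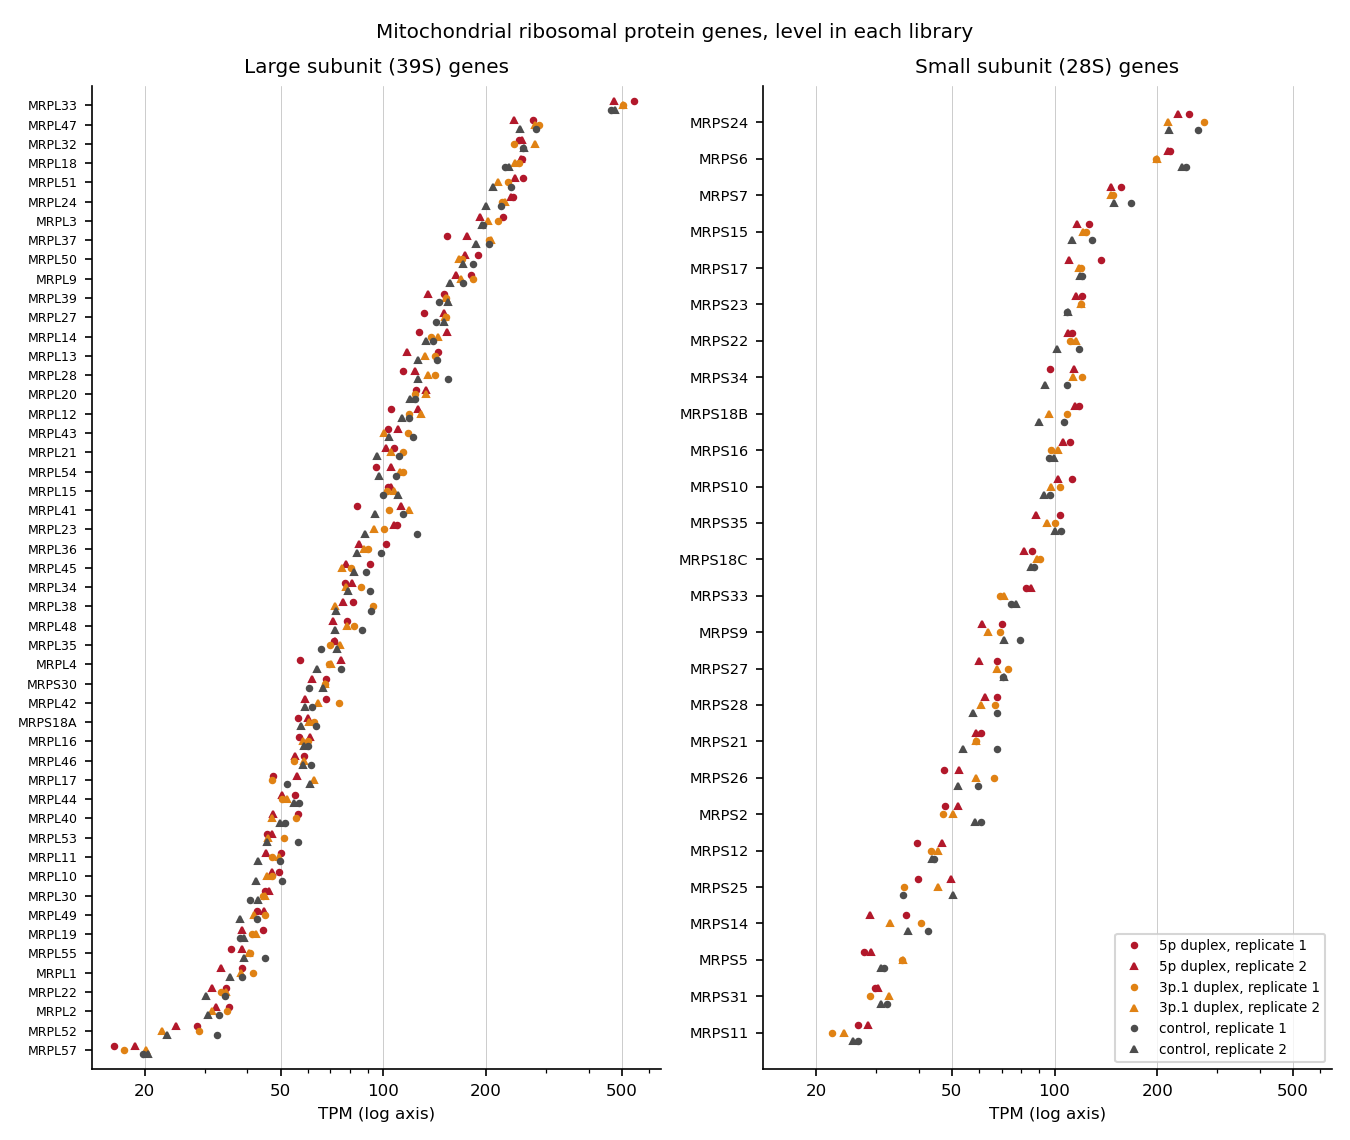
Level of 76 members in each of the 6 libraries, in TPM on a log axis, ordered by mean within the large subunit (left, 50 genes) and the small subunit (right, 26 genes). Colours give the group and symbols the replicate. The 6 points of a gene lie within 1.49-fold of each other, while genes run from 18.8 to 494 TPM. MRPS36, which is in neither subunit, is not drawn.

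The order of the members changed little between libraries. Across the 77 genes, log2(TPM + 1) correlated between pairs of libraries at Pearson 0.981 to 0.993 and Spearman 0.979 to 0.993, a description over genes that share their libraries. The SD of a member's level over the 6 libraries had a median of 0.097 on the log2(TPM + 1) scale, against 0.15 for all tested genes and 0.12 for the 6724 tested genes in the same TPM range. Between the highest and the lowest library the levels of a member differed at most 1.49-fold, in MRPS14. Neighbours in the order of levels could overlap by more than they differed. MRPL18 had library values of 226.72 to 254.95 TPM, and MRPS24, the next below it, had 214.75 to 274.25 TPM.

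Taken as a set, the members summed to 8012 and 7775 TPM with the 5p duplex, to 8080 and 7909 TPM with the 3p.1 duplex and to 8148 and 7595 TPM in control. That was 0.76% to 0.81% of each library's TPM. The control libraries held both the highest and the lowest sum, so the sums of both duplex groups lay inside the control range. Group means were 7894 ± 167 TPM with the 5p duplex, 7994 ± 121 TPM with the 3p.1 duplex and 7872 ± 391 TPM in control (SD, n = 2 each). In bulk RNA, fewer cells and less RNA per cell cannot be told apart.

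The first question was whether the 5p duplex moved these genes relative to the control microRNA. No member passed the test (limma, adjusted p under 0.05), where 0.463% of all tested genes did (62 of 13400). At an unadjusted p under 0.05 there were 2 members, MRPS2 and MRPL37, both lower, against 9.16% of tested genes. The smallest adjusted p of a member was 0.47. Changes were small throughout, with 72 of 77 members within 0.2 of no change on the log2 scale, against 73.3% of all tested genes and 79.1% of those in the same TPM range. The median log2 fold change was -0.013 over the members and -0.030 over all tested genes, and it turned positive for the members, at 0.0063 and 0.023, with quantile normalization and median-ratio scaling.

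MRPS2, a small subunit protein with a bacterial homologue, had 47.65 and 52.17 TPM with the 5p duplex, against 60.94 and 58.54 TPM in control. Both 5p duplex libraries lay below both controls, with a log2 fold change of -0.26 (SE 0.093, limma adjusted p = 0.47). MRPL37, a large subunit protein gained in mitochondria, had 154.09 and 176.13 TPM with the 5p duplex, against 203.50 and 187.15 TPM in control. These groups did not overlap either, and the log2 fold change was -0.24 (SE 0.099, limma adjusted p = 0.53). MRPS14 had the lowest value of all members, -0.29 with a wider SE of 0.16, from 36.75 and 28.72 TPM with the 5p duplex, against 42.72 and 37.10 TPM in control. MRPL28 (-0.23) and MRPL57 (-0.20) completed the 5 lowest.

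At the other end stood MRPS18B, a small subunit protein, with 117.89 and 114.55 TPM with the 5p duplex, against 106.33 and 90.18 TPM in control. Its libraries did not overlap, its log2 fold change was 0.24 (SE 0.11) and its limma adjusted p was 0.59. The next were MRPL24 (0.18), MRPS10 (0.18), MRPL51 (0.16) and MRPS16 (0.15), of which none passed the test. In 24 of 77 members (31.2%) the groups did not overlap, 12 higher and 12 lower with the 5p duplex. Of all tested genes, 34.8% did not overlap, 12.7% higher and 22.1% lower. The 95% interval of every member lay within a 2-fold change (1 on the log2 scale) in either direction, and for 70 of 77 it lay within 0.5. The outermost bounds were -0.68 and 0.55.

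The subunits had like medians in this comparison, while the shares of genes without overlap differed. Groups did not overlap in 11 of 50 large subunit genes (22%) and in 13 of 26 small subunit genes (50%). Of all tested genes, 34.8% did not overlap, and the difference between the subunits was not tested. The median change was -0.013 for large subunit genes, with 23 positive and 27 negative, and -0.0066 for small subunit genes, with 12 positive and 14 negative. Genes with a bacterial homologue had a median of 0.0045 and those found only in mitochondria one of -0.051, neither set being tested against the other.

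**Figure D2:**
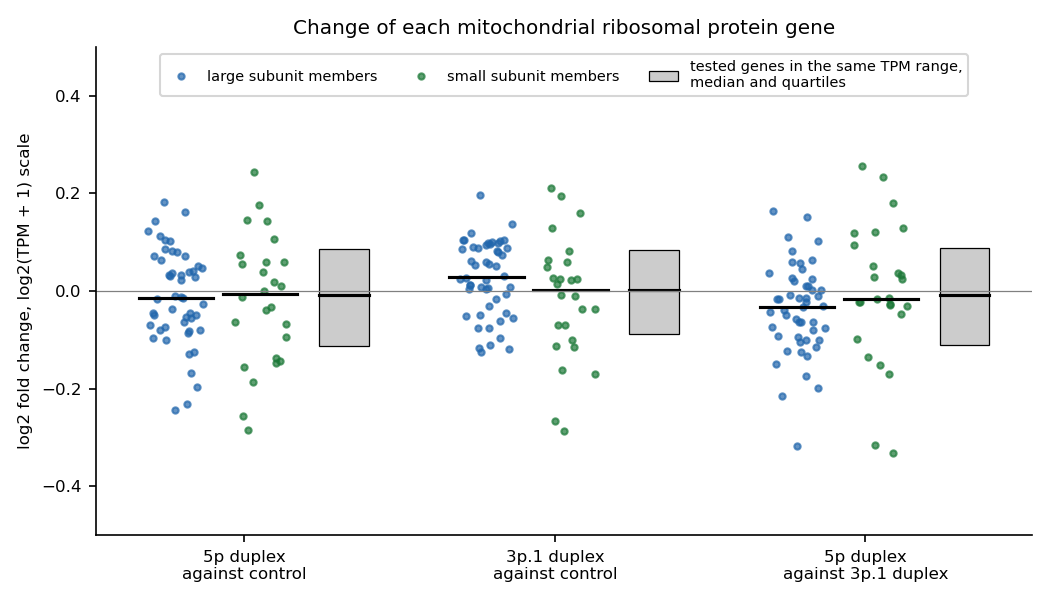
Log2 fold change of each member on the log2(TPM + 1) scale in the 3 comparisons, for large subunit (blue, 50 genes) and small subunit members (green, 26 genes), with black lines at their medians. Grey boxes give the median and quartiles of the 6724 tested genes in the same TPM range. All members lie between -0.33 and 0.26, and the medians of the subunits lie between -0.032 and 0.028.

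The second question was the same for the 3p.1 duplex, which was set against the same 2 control libraries. No member passed the test (limma), where 0.0149% of tested genes did (2 of 13400). At an unadjusted p under 0.05 there were again 2 members, MRPS2 and MRPS6, both lower, against 6.86% of tested genes. The median log2 fold change was 0.022 over the members and -0.033 over all tested genes, and 74 of 77 members lay within 0.2 of no change, against 76.9% of tested genes. Groups did not overlap in 26 members (33.8%), 17 higher and 9 lower with the 3p.1 duplex, against 36.3% of tested genes, 12.1% higher and 24.1% lower.

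MRPS2 had the lowest value here too, with 47.21 and 50.33 TPM with the 3p.1 duplex, against 60.94 and 58.54 TPM in control. Its log2 fold change was -0.29 (SE 0.093, limma adjusted p = 0.60). Since both duplexes are compared with the same controls, the 2 values of MRPS2 are not independent, and between the duplexes its log2 difference was 0.032. MRPS6, a small subunit protein with a bacterial homologue, had 197.81 and 199.86 TPM with the 3p.1 duplex, against 242.02 and 236.43 TPM in control. The groups did not overlap, and the log2 fold change was -0.27 (SE 0.076, limma adjusted p = 0.53). Exons of MRPS6 overlap those of SLC5A3 on the same strand, so how reads were divided between them is uncertain. MRPS9 (-0.17), MRPS11 (-0.16) and MRPL45 (-0.13) followed. MRPL45 lies at the exit of the peptide tunnel and ties the ribosome to the inner membrane.

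MRPS34, a small subunit protein gained in mitochondria, gave 120.56 and 113.45 TPM with the 3p.1 duplex, against 108.94 and 93.54 TPM in control. Its libraries did not overlap, with a log2 fold change of 0.21 (SE 0.12, limma adjusted p = 0.83). MRPL42 (0.20), MRPS5 (0.19), MRPS26 (0.16) and MRPL54 (0.14) came next, and none passed. Large subunit genes had a median of 0.028, with 35 positive and 15 negative, and small subunit genes one of 0.0021, with 13 of each sign. All 77 intervals again lay within 1 on the log2 scale, 71 of them within 0.5, between outermost bounds of -0.58 and 0.51.

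The third comparison set the duplexes against each other, which leaves the controls out of the difference. No member passed the test (limma), where 0.433% of tested genes did (58 of 13400), and 4 members had an unadjusted p under 0.05, against 9.34% of tested genes. Those 4 were MRPS5, MRPL37 and MRPS26, lower with the 5p duplex, and MRPS33, higher with it. The median log2 fold change over the members was -0.022, against 0.0055 over all tested genes, and it was 0.0024 with quantile normalization. Groups did not overlap in 24 members (31.2%), 12 in each direction, against 40.4% of tested genes, 21.0% higher and 19.4% lower with the 5p duplex.

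MRPS5, a small subunit protein with a bacterial homologue, had 27.70 and 29.01 TPM with the 5p duplex, against 35.79 and 36.08 TPM with the 3p.1 duplex. The controls, at 31.59 and 30.96 TPM, lay between the duplex groups. Its log2 fold change of -0.33 (SE 0.088) carried the smallest adjusted p of any member in the 3 comparisons, 0.29 (limma). MRPL37 had 154.09 and 176.13 TPM with the 5p duplex, against 204.18 and 206.75 TPM with the 3p.1 duplex, which gave -0.32 on the log2 scale (SE 0.099, limma adjusted p = 0.38). Its 3p.1 duplex values lay above both controls, while its 5p duplex values lay below both.

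MRPS26, a small subunit protein gained in mitochondria, had 47.60 and 52.49 TPM with the 5p duplex, against 66.31 and 58.89 TPM with the 3p.1 duplex. These groups did not overlap, and the log2 fold change was -0.32 (SE 0.11, limma adjusted p = 0.46). MRPS33, also a small subunit protein, had 82.66 and 85.16 TPM with the 5p duplex, against 69.22 and 70.94 TPM with the 3p.1 duplex. Its log2 fold change was 0.26 (SE 0.081, limma adjusted p = 0.38), with the controls, at 74.64 and 77.01 TPM, again in between. The remaining members at the ends were MRPS11 (0.23), MRPS18B (0.18), MRPL23 (0.16) and MRPL51 (0.15) on the high side and MRPL28 (-0.22) and MRPL41 (-0.20) on the low side. MRPL41 turned to 0.016 without 5p duplex replicate 1, where it had 83.48 TPM, and to -0.41 without 5p duplex replicate 2, where it had 112.63 TPM.

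**Figure D3:**
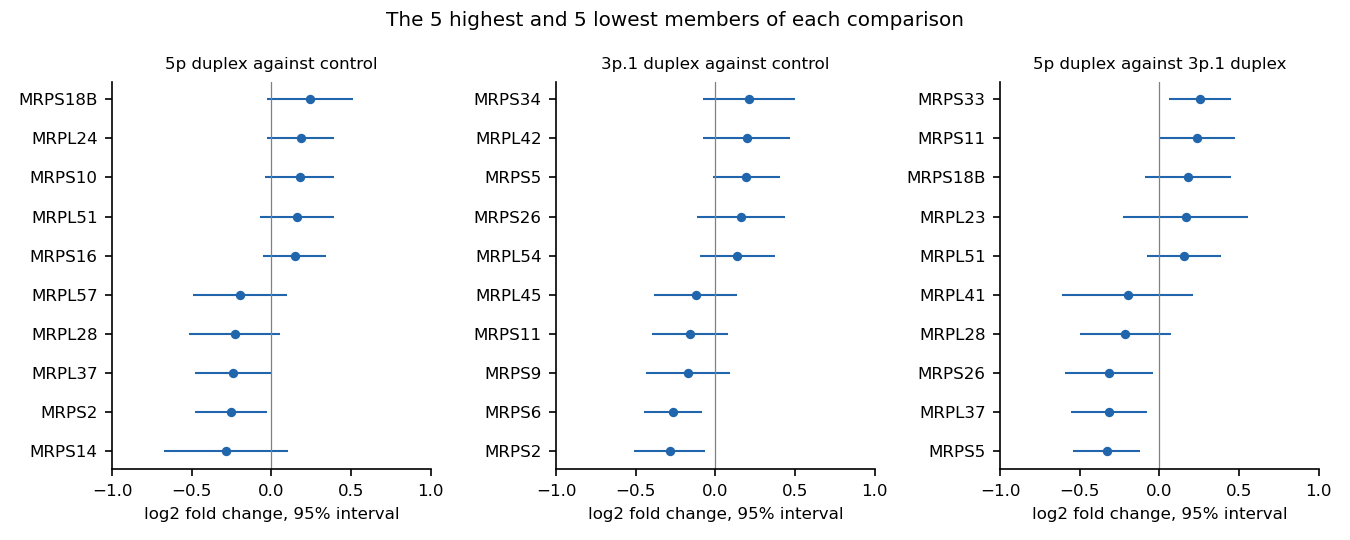
Log2 fold change with its 95% interval from the limma model for the 5 highest and 5 lowest members of each comparison. None of these members passed the test after adjustment over 13400 genes. The widest interval shown, for MRPL41 between the duplexes, runs from -0.61 to 0.21.

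Members with a site for miR-324-5p had a higher median change with the 5p duplex than members without one, which was not tested. Over the 7 carriers the median against control was 0.060 on the log2 scale, from -0.081 in MRPL44 to 0.14 in MRPS33, with 5 positive and 2 negative. The other 70 members had a median of -0.015. MRPS33, the carrier of 2 sites, was also the highest of the 7. MRPL44 had 55.11 and 50.35 TPM with the 5p duplex, against 56.77 and 54.78 TPM in control, and MRPS7, which had the other negative value (-0.064), had 156.18 and 146.60 TPM with the 5p duplex, against 167.75 and 149.22 TPM in control. In both genes the groups overlapped. Those 2, with MRPL22 (0.040), MRPS25 (0.060) and MRPL42 (0.071), were the 5 lowest carriers, and adjusted p-values of these 5 lay between 0.87 and 0.96 (limma).

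For the annotated 3p arm, the 26 carriers had a median change of 0.018 with the 3p.1 duplex against control on the log2 scale, and the 51 members without a site had one of 0.024. The 4 members with an 8mer gave MRPL9 0.10, MRPL18 0.098, MRPS12 0.013 and MRPS21 -0.038, named for their site after their values were seen. The smallest of their adjusted p-values was 0.90, in MRPL18 (limma).

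MRPS18A, MRPS18B and MRPS18C are paralogs related to a bacterial small subunit protein. MRPS18C was counted above with the bacterial homologues, and MRPS18A and MRPS18B, which have diverged from it, with the proteins found only in mitochondria. The proteins of MRPS18B and MRPS18C sit in the small subunit at different places, and that of MRPS18A sits in the large subunit. MRPS18A had 56.39 and 60.29 TPM with the 5p duplex, 62.76 and 60.62 TPM with the 3p.1 duplex and 63.71 and 57.22 TPM in control. MRPS18C had 85.82 and 81.66 TPM with the 5p duplex, 90.49 and 88.83 TPM with the 3p.1 duplex and 86.90 and 85.06 TPM in control. In MRPS18A both duplex groups overlapped control, and the 5p duplex lay below the 3p.1 duplex. In MRPS18C the 3p.1 duplex lay above both other groups, which overlapped. For MRPS18B the 3p.1 duplex libraries had 108.47 and 96.63 TPM, of which the lower overlapped control. Their log2 fold changes with the 5p duplex against control were -0.050 (MRPS18A), 0.24 (MRPS18B) and -0.038 (MRPS18C). With the 3p.1 duplex against control they were 0.030, 0.064 and 0.060 in that order. No adjusted p was under 0.59 (limma). The order of levels, MRPS18B above MRPS18C above MRPS18A, was the same in all 6 libraries.

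Promoters of the members were read for 5 short words. RefSeq windows of 300 bases, 250 before and 50 after the start, were at hand for 68 of 77 members and 9443 tested genes. The word CCGGAAG, bound by ETS factors such as GABPA, was found on either strand in 28 of 68 member windows (41.2%), against 19.7% of tested genes and 10.7% of all 27305 windows. AAGATGG, the core bound by YY1, was found in 23 (33.8%), against 7.77% of tested genes and 6.06% of all windows. On the strand of the gene and within the 50 bases after the start, 16 members held AAGATGG (23.5%, against 3.84% of tested genes), beginning 7 to 36 bases into the transcript. AAGATGG contains ATG, the letters of a start codon, and where these matches lie relative to the coding start was not read. GCGCATG, bound by NRF1, was found in 7 (10.3%, against 7.72%), the E-box CACGTG in 6 (8.82%, against 10.2%) and TCTCGCG in 4 (5.88%, against 6.83%). No word contains another.

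The 3 MRPS18 windows are shown because these paralogs carry all 5 words between them. Capitals mark the words, and coordinates are GRCh38.p14.
MRPS18A, chr6:43687742-43688041, minus strand: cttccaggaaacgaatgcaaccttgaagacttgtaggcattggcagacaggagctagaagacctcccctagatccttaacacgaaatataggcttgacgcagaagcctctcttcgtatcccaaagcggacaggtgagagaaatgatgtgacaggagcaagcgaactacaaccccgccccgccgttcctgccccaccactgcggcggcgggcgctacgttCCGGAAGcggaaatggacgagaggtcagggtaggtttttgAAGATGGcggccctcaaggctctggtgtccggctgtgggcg
MRPS18B, chr6:30617590-30617889, plus strand: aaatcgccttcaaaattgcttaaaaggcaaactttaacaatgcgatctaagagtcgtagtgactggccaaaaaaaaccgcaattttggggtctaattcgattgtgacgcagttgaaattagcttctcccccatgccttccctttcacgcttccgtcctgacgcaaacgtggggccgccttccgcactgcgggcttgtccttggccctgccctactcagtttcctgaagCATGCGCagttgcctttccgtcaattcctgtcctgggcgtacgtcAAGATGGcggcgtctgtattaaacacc
MRPS18C, chr4:83455808-83456107, plus strand: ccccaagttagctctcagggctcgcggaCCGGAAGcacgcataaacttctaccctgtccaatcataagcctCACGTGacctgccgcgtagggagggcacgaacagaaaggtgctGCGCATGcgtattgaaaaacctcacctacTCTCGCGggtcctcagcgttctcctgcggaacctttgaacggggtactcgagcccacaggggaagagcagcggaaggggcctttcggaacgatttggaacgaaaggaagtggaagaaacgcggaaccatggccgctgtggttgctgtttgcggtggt
In MRPS18B the NRF1 word appears as its reverse complement, CATGCGC. A match describes letters and is neither a bound site nor a cause. Members with AAGATGG had a median level of 82.8 TPM and those without it one of 82.0 TPM, and members with CCGGAAG had 93.8 TPM against 75.6 TPM without it. With the 5p duplex against control, the median log2 fold change was 0.028 in the 23 members with AAGATGG and -0.044 in the 45 without. For CCGGAAG it was -0.025 in the 28 with it and -0.020 in the 40 without. With the 3p.1 duplex against control, the medians were 0.022 with and 0.022 without AAGATGG, and 0.027 with and 0.0097 without CCGGAAG. These differences were not tested.

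Members lie on 21 chromosomes, so the set is dispersed. Another protein-coding gene begins within 1000 bp on the opposite strand, pointing away, at 17 members (22.1%), against 9.89% of tested genes. MRPL46 and MRPS11 share such a start region with their starts 34 bp apart, and their levels were 57.8 and 25.6 TPM. Between the duplexes the log2 difference was 0.0030 for MRPL46 and 0.23 for MRPS11, which had 26.55 and 28.43 TPM with the 5p duplex, against 22.25 and 24.19 TPM with the 3p.1 duplex. Other such partners were the complex I subunit genes NDUFS6 (beside MRPL36) and NDUFB5 (beside MRPL47) and the chaperonin gene TCP1 (beside MRPL18), at 185.7, 329.9 and 460.8 TPM. These pairs were chosen after their values were seen. Exons of 16 members overlap another gene on the same strand and those of 29 a gene on the other strand, and 34 members have annotated pseudogenes, 75 in all, so how reads of these members were divided is uncertain. Among them are MRPL33, MRPL28, MRPS5, MRPS16 and MRPS24, whose exons overlap another gene on the same strand. MRPS24 shares them with the read-through gene URGCP-MRPS24.

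The spread between replicates of a group sets what could be seen. On the log2 scale, replicate 1 minus replicate 2 had a median over the members of 0.060 with the 5p duplex, 0.029 with the 3p.1 duplex and 0.11 in control, and 46, 47 and 60 of 77 members were higher in replicate 1. The medians of its absolute size were 0.13, 0.083 and 0.14. The median absolute change between groups was 0.063 to 0.074. It is a difference of means of 2 libraries, which varies less than a difference of single libraries, so the sizes are not directly comparable. The highest and the lowest replicate difference of any member both lay in control. MRPL23 had 125.64 and 88.18 TPM in the 2 controls and MRPS25 had 36.04 and 50.50 TPM there, differences of 0.51 and -0.48.

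The difference between replicates varied with the GC content of the transcript in some groups. Across the 77 members, its Pearson correlation with GC was -0.59 with the 5p duplex, 0.11 with the 3p.1 duplex and 0.38 in control, values that describe genes sharing 2 libraries each. Over the tested genes with a GC value the same correlations were -0.42, 0.0076 and 0.20. MRPL41 has the highest GC of the members (71.9%) and differed by -0.43 between the 5p duplex replicates, the lowest of the 77. MRPS36 has 35.0% GC and differed by 0.35 there, the highest. The log2 fold change itself had a Spearman correlation with GC over the members of -0.19 with the 5p duplex against control, 0.024 with the 3p.1 duplex against control and -0.16 between the duplexes. Over 11771 tested genes the same values were -0.23, -0.10 and -0.14. The part of GC in single changes was not tested.

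**Figure D4:**
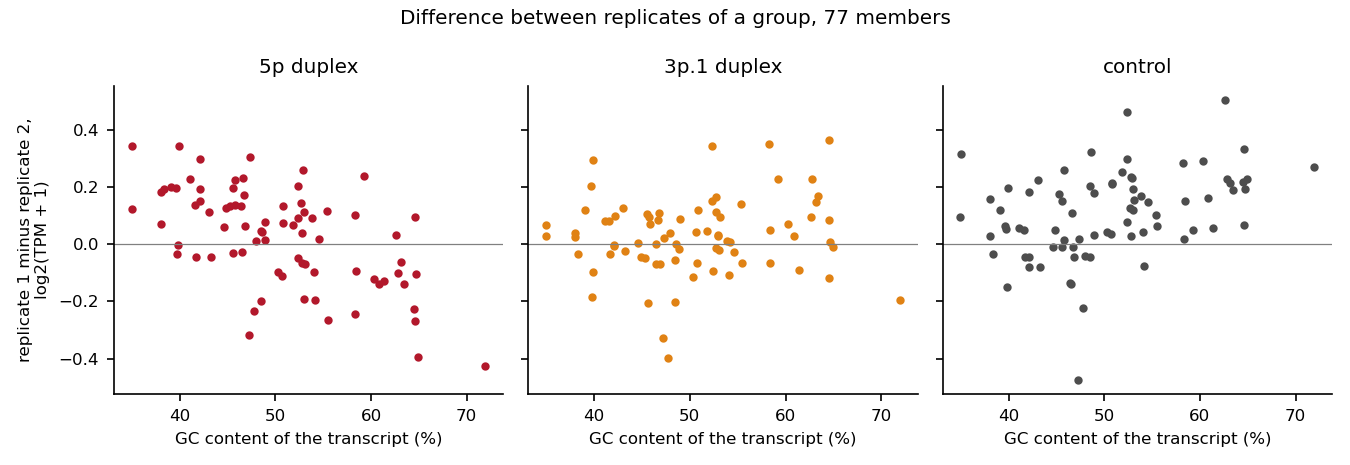
Replicate 1 minus replicate 2 on the log2(TPM + 1) scale against the GC content of the transcript, for the 77 members in each group. Points fall with GC in the 5p duplex group (Pearson -0.59), show little slope in the 3p.1 duplex group (0.11) and lie higher at high GC in control (0.38).

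The 2 control libraries stood apart in other ways. The 37 interferon response genes of a list summed to 1319 and 1402 TPM with the 5p duplex, to 1279 and 1298 TPM with the 3p.1 duplex and to 3026 and 7161 TPM in control. Against control their median was -2.54 on the log2 scale with the 5p duplex, where 4 of 37 fell by the test and 36 had an unadjusted p under 0.05. With the 3p.1 duplex it was -2.50, where none of the 37 passed (limma) and 36 had an unadjusted p under 0.05. Control replicate 2, the higher of the 2 in these genes, was also the library in which the fewest members, 20 of 77, lay above their own 6-library mean, against 55 in control replicate 1. Without control replicate 1 the members' median change was 0.044 with the 5p duplex and 0.088 with the 3p.1 duplex, and without control replicate 2 it was -0.065 and -0.024. The part of the interferon genes in the members' values was not tested.

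**Figure D5:**
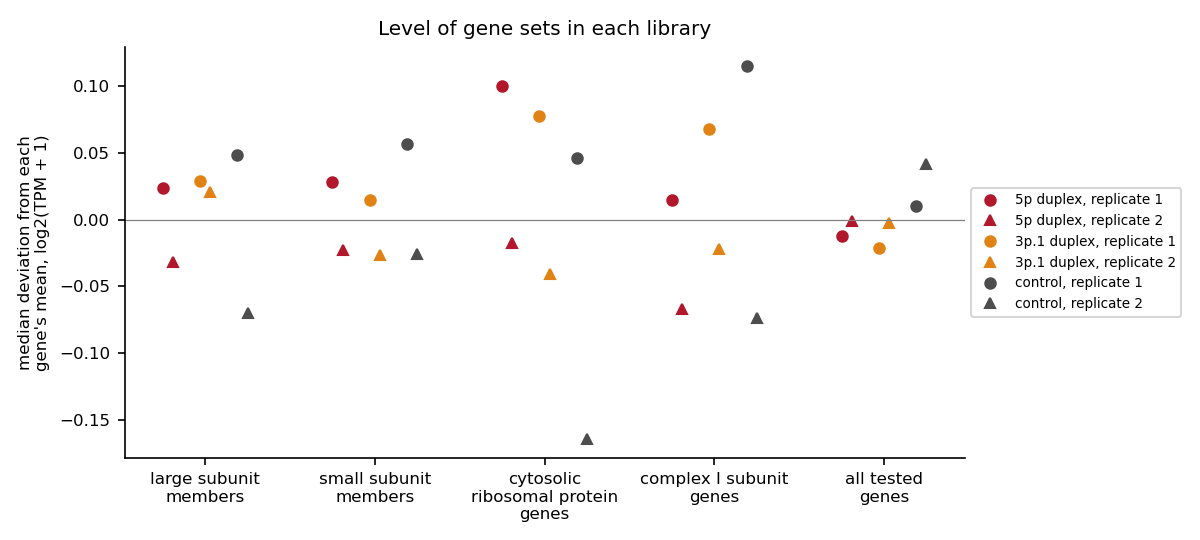
Median deviation of gene sets from each gene's own 6-library mean, on the log2(TPM + 1) scale, for each library. Large and small subunit members lie between -0.070 and 0.057, with the 2 control libraries at the ends for the large subunit. Cytosolic ribosomal protein genes reach -0.16 in control replicate 2.

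Markers of the line and of other cell types were read from lists. Of 12 glioblastoma and glial markers 8 were at 1 TPM or more in every library, led by VIM and CD44, while GFAP and PDGFRA were under 1 TPM and S100B and AQP4 were not listed. Of 7 blood and endothelial markers 5 were under 1 TPM in every library, CD3E and HBB not being listed at all. CD68, at 32.67 to 60.21 TPM, and PTPRC, at 5.52 to 7.48 TPM, made up most of the summed list of 40.85 to 67.1 TPM. Neuronal markers summed to 22.42 to 26.23 TPM, mostly from SYT1 (10.12 to 12.06 TPM) and GAD1 (10.18 to 13.61 TPM). RBFOX3, SNAP25, SLC17A7 and STMN2 were under 1 TPM. The epithelial list summed to 930.2 to 1359 TPM, nearly all from KRT8 and KRT18, with CDH1 under 1 TPM. No marker passed the test against control in either duplex group (limma), where 2 epithelial genes (with the 5p duplex) and CD68 (with the 3p.1 duplex) had an unadjusted p under 0.05. Between the duplexes CLDN4, a claudin of epithelial junctions, was higher with the 5p duplex, at 21.77 and 27.38 TPM, against 11.11 and 10.88 TPM with the 3p.1 duplex (limma adjusted p = 0.045). Whether that call holds with other settings or with a library left out was not read.

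Further proteins of the same ribosome have genes with other names. DAP3, PTCD3, AURKAIP1 and CHCHD1 of the small subunit and GADD45GIP1 of the large subunit gave no call in any comparison (limma), and of these 5 only GADD45GIP1 had an unadjusted p under 0.05, between the duplexes. DAP3 had 238.91 and 232.26 TPM with the 5p duplex, against 214.66 and 214.28 TPM in control. Its groups did not overlap, at a log2 fold change of 0.13 (SE 0.077, limma adjusted p = 0.69). GADD45GIP1 had 78.89 and 102.10 TPM with the 5p duplex, against 119.90 and 119.12 TPM with the 3p.1 duplex, without overlap. That was -0.41 on the log2 scale (SE 0.13, limma adjusted p = 0.40). MRPL58, a ribosome-bound peptidyl-tRNA hydrolase that frees stalled ribosomes, is listed under its older symbol ICT1. It had 97.36 and 86.33 TPM with the 5p duplex, 111.35 and 106.22 TPM with the 3p.1 duplex and 102.83 and 98.63 TPM in control, with no adjusted p under 0.50 (limma). MRPL12, the stalk protein that contacts translation factors, had 105.05 and 126.66 TPM with the 5p duplex, 118.79 and 128.95 TPM with the 3p.1 duplex and 119.11 and 113.69 TPM in control. MRPS36 had 62.72 and 49.14 TPM with the 5p duplex, 55.52 and 52.93 TPM with the 3p.1 duplex and 63.88 and 51.12 TPM in control. In both genes all groups overlapped.

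Of 29 genes for assembly of the ribosome and modification of its RNA, TRUB2 was the only one to pass the test, in 2 of the comparisons. No assembly gene passed with the 3p.1 duplex against control (limma), where 2 had an unadjusted p under 0.05. TRUB2 encodes a mitochondrial pseudouridine synthase that belongs to a group of proteins linked to the large ribosomal RNA. It had 32.94 and 29.14 TPM with the 5p duplex, 60.64 and 61.75 TPM with the 3p.1 duplex and 69.28 and 57.69 TPM in control. The 5p duplex libraries lay far below the other 4, which overlapped. TRUB2 fell with the 5p duplex, to a log2 fold change of -1.01 against control (SE 0.12, limma adjusted p = 0.037) and of -0.96 against the 3p.1 duplex (adjusted p = 0.044), while the 3p.1 duplex against control gave -0.046. The call was lost in each of the 6 fits that left out 1 library, with adjusted p-values of 0.055 to 0.20 against control, although the log2 fold change stayed between -1.14 and -0.88. Of all 13 alternatives, the call against control held in 2, the pseudocount of 0.1 and the replicate block. No 7mer or 8mer site for miR-324-5p was found in its longest annotated 3′UTR (4389 nt), which held an 8mer and 4 7mer sites for the annotated 3p arm. The 8mer window, on chr9:128309512-128309539, minus strand, is shown because it is the longest site class found in this gene, with the site in capitals.
TRUB2: agctcctgggGCAGTGGAtggataaata

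Other genes of that list did not pass. PNPT1, an RNA-processing enzyme that interferon induces, had 44.38 and 39.09 TPM with the 5p duplex and 45.70 and 45.23 TPM with the 3p.1 duplex, against 49.32 and 98.12 TPM in control, the highest value being in the control with the highest interferon genes. METTL15, which methylates the small ribosomal RNA, had 11.37 and 11.43 TPM with the 3p.1 duplex, against 15.80 and 15.41 TPM in control, or -0.42 on the log2 scale (SE 0.10, limma adjusted p = 0.45).

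The 15 translation factors gave no call in any comparison (limma), with 1 unadjusted p under 0.05. Their median change was 0.070 with the 5p duplex against control, with 14 of 15 positive, and 0.097 with the 3p.1 duplex against control, with 10 positive. GFM1, the elongation factor that moves the ribosome along the message, had 72.08 and 65.49 TPM with the 5p duplex, against 53.63 and 54.66 TPM in control. Its groups did not overlap, at a log2 fold change of 0.34 (SE 0.092, limma adjusted p = 0.27).

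Among 22 aminoacyl-tRNA synthetase genes no member passed either, and 3, 0 and 2 had an unadjusted p under 0.05 with the 5p duplex against control, the 3p.1 duplex against control and the 5p duplex against the 3p.1 duplex (limma). LARS2, the leucyl enzyme, had 11.18 and 11.86 TPM with the 5p duplex, against 14.81 and 19.02 TPM in control (log2 fold change -0.51, SE 0.14, limma adjusted p = 0.30). The 13 tested genes of mitochondrial transcription and DNA maintenance and the 10 tested regulators of mitochondrial biogenesis gave no call (limma), with 2 and 1 unadjusted p-values under 0.05 over the 3 comparisons. The regulators included MYC, at 30.67 and 29.27 TPM with the 5p duplex, against 40.08 and 38.12 TPM with the 3p.1 duplex (log2 fold change -0.37, SE 0.089, limma adjusted p = 0.25).

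Cytosolic ribosomal protein genes, the other ribosome of the cell, gave no call, and none of the 79 had an unadjusted p under 0.05 in any comparison (limma). With the 5p duplex against control, the mitochondrial genes had a median of -0.013 with 35 of 77 positive, and the cytosolic genes one of 0.097 with 70 of 79 positive. With the 3p.1 duplex against control, the mitochondrial genes had 0.022 with 48 positive, and the cytosolic genes 0.074 with 66 positive. The cytosolic genes' deviation in control replicate 2 was -0.16, the lowest of the 6 libraries, and the difference between the lists was not tested.

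Complex I, some of whose membrane subunits the mitochondrial ribosome makes, gave 2 calls among 37 nuclear-encoded subunits with the 5p duplex against control, 1 between the duplexes and none with the 3p.1 duplex against control (limma, 1 unadjusted p under 0.05). NDUFA8 fell to 118.35 and 129.58 TPM with the 5p duplex, against 219.97 and 218.26 TPM with the 3p.1 duplex and 218.52 and 215.30 TPM in control. Its log2 fold changes were -0.80 against control and -0.82 against the 3p.1 duplex (SE 0.084, limma adjusted p = 0.025 in both). NDUFAB1, which is also the acyl carrier protein that binds mitochondrial ribosome assembly intermediates, fell to 217.57 and 206.26 TPM with the 5p duplex, against 395.24 and 372.87 TPM in control (log2 fold change -0.85, SE 0.11, limma adjusted p = 0.049). Its 3p.1 duplex libraries, at 381.09 and 318.05 TPM, overlapped control. Neither gene held a 7mer or 8mer site for miR-324-5p in its longest annotated 3′UTR. Both calls were lost in each of the 6 fits that left out 1 library, with adjusted p-values against control of 0.051 to 0.14 for NDUFA8 and 0.083 to 0.26 for NDUFAB1, while the log2 fold changes stayed between -0.87 and -0.74 and between -0.90 and -0.81. Against control NDUFA8 kept its call in 4 of the 13 alternatives and NDUFAB1 in 2.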

How the data were processed

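Each library has a list of TPM by gene symbol, as deposited by the authors. The submitters' processing notes name RSEM and GRCh38. The sources used here state no version, aligner or annotation. RNA was selected with oligo-dT and read as stranded pairs, per the labels' protocols. TPM keeps no read number, so depth is unknown and no counting interval is given.

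Symbols not listed were set to 0 and repeated symbols (21 to 23 per library) were summed. Values were analysed as log2(TPM + 1), a scale on which changes of low genes come out too small. The 13400 of 20979 symbols whose mean reached 1 TPM were fitted over all 6 libraries in 1 model of group means with limma 3.58.1 in R 4.3.3 (variance trend, 3 residual and 3.38 prior degrees of freedom). Calls were made at a two-sided Benjamini-Hochberg adjusted p under 0.05 over all tested genes. The code was also run on simulated data with known changes. Noise there was independent for each gene, without the GC differences between replicates seen here, so the run checks the code and not how well the model describes these data. An exact permutation test of 2 against 2 gives no p below 0.333 and was not used. Errors of TPM means are SDs and of fold changes standard errors.

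Members, lists, words and alternatives were chosen with earlier results of these data known. Members named are those called, the 5 highest and 5 lowest by log2 fold change in each comparison and by mean TPM, the MRPS18 paralogs, MRPS36, MRPL12, MRPL58, the member nearest the 1 TPM filter, and the 5 carriers of a miR-324-5p site lowest with the 5p duplex. From other lists, called genes, the ribosomal proteins named otherwise and at most 3 genes per list by unadjusted p are named. Alternatives were a pseudocount of 0.1, no filter, quantile normalization, median-ratio scaling, only the groups compared, no variance trend, a replicate block and each library left out. Sites and gene models come from GENCODE 29, miRNAs and promoters from RefSeq (GRCh38.p14).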

Additional observations from a re-analysis of the deposited data

How the results depend on the processing

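No member was called in any of the 13 alternatives of any comparison, and the smallest adjusted p was 0.093 (MRPS5 between the duplexes, with the replicate block, limma). Of 390 values of members named for their change, 389 kept their direction. That count says little about stability, since the members were named for high or low values in these same libraries. Several alternatives cannot alter a log2 fold change: no filter, only the groups compared, no variance trend and the replicate block. Leaving out a library of the group not compared cannot alter it either. MRPL41 between the duplexes turned to 0.016 without 5p duplex replicate 1 and lay at -0.41 without 5p duplex replicate 2. The members' median log2 fold change lay, with 1 library left out, between -0.065 and 0.044 (5p duplex against control), -0.024 and 0.088 (3p.1 duplex against control) and -0.035 and 0.0024 (5p duplex against 3p.1 duplex). In both comparisons with control, the highest of these values came without control replicate 1 and the lowest without control replicate 2. The SD of the members' median level between replicates was 0.052 on the log2 scale, which is not a measure of these shifts. Counts over all genes were less stable. With the 5p duplex against control, 62 genes became 9 without a filter, 11 with only the 2 groups compared, 33 without a variance trend and 7 to 128 with 1 library left out. With the 3p.1 duplex against control, 2 became 0 without a filter, 18 with only the 2 groups and 5 to 94. Between the duplexes, 58 became 5 without a filter, 19 with only the 2 groups, 5 without a trend and 7 to 26. The replicate block gave 367, 30 and 278 genes; the labels tie replicate numbers to no batch, and with 2 numbers per group the pairing was not taken as given, though replicate differences correlated between groups at 0.18 to 0.60 over the members and 0.27 to 0.38 over tested genes. The cause of these shifts was not tested. With 2 libraries per group and unknown depth, changes inside the intervals given for the members could not be told from none.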
